A study of Mus musculus with 24 samples.

Results

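The antigen presentation genes of the MHC class II system were examined in skeletal muscle of mice. The genes were H2-Aa, H2-Ab1, H2-Eb1, H2-DMa, H2-DMb1, Cd74 and Ciita, chosen by name, and all 7 were found among the 37074 gene names of the array design. They are represented by 14 probes, of which 10 passed the filter on dim probes described with the processing, and each of the 7 genes kept at least 1 probe. RNA of 24 muscle samples had been hybridised to one-colour Agilent arrays, 8 samples in each of 3 groups of mice. STD_Cont mice came from the control lineage and received the low fat diet. HFD_Cont mice came from the same control lineage and received the high fat diet. HFD_O3 mice came from an omega-3 lineage and also received the high fat diet. No group joins the omega-3 lineage to the low fat diet, so HFD_O3 against STD_Cont changes diet and lineage together. The labels used here give no strain, age, sex, muscle, lineage construct or length of feeding.

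MHC class II molecules display peptides from engulfed or endocytosed proteins to CD4 T cells. H2-Aa and H2-Ab1 encode the alpha and beta chains of the I-A molecule, and H2-Eb1 the beta chain of I-E. Cd74 encodes the invariant chain, which blocks the peptide groove during transport and is then cut down to a fragment that H2-DM, built from the H2-DMa and H2-DMb1 products, exchanges for peptide. Ciita is the transactivator that switches these genes on together, through proteins bound to the X and Y boxes of their promoters. In resting muscle, class II is best known from macrophages and dendritic cells between the fibres. These are bulk samples, in which fewer cells of a type and less RNA per cell cannot be told apart.

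The probes were 60 bases long, and their positions are given by the array files on mouse build mm9. The H2-Aa probe lay at chr17:34421285-34421344 on the minus strand. The 4 H2-Ab1 probes, numbered here along the plus strand, lay at chr17:34404357-34404416 (probe 1), chr17:34406059-34406118 (probe 2), chr17:34406296-34406355 (probe 3) and chr17:34406305-34406363 (probe 4). Probes 3 and 4 overlap by 51 bases and differ there by T51C, with probe 3's base given before the position, which is counted from 1 at its 5′ end, and probe 4's after it. H2-Eb1 was read at chr17:34453075-34453134 and H2-DMb1 at chr17:34297109-34297168, both on the plus strand. The H2-DMa probe was given from chr17:34274300 to 34274863, a span longer than its 60 bases. Ciita was read at chr16:10526458-10526517. The H2-Aa probe and H2-Ab1 probe 1 are shown as what was hybridised for the 2 chains of I-A.
H2-Aa probe: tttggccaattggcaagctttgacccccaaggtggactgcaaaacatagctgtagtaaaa
H2-Ab1 probe 1: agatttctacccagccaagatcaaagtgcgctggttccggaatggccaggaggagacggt

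Promoter sequences from RefSeq (GRCm38.p6) were matched for 4 of the 7 genes, H2-Aa, H2-Eb1, H2-DMa and H2-DMb1. They are shown because the genes are described below as varying together across arrays, for 3 of them as sequence and for H2-DMa in words. Each line gives the 150 bases before the annotated start, with motif matches in capitals. The motifs, searched on both strands in windows from 250 bases before to 50 bases after a start, were GATTGG (the core of the Y box), AACNGATG (written after the X box) and TGACGTCA (the cyclic AMP response element). The letters searched were settled after the windows had been seen, and a longer form of the X box was searched first. None of the matches shown overlaps another.
H2-Aa, chr17:34287824-34287973, minus strand: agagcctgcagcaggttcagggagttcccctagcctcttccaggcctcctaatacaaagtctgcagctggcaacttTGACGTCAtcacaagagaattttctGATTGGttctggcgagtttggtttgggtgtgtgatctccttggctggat
H2-Eb1, chr17:34305717-34305866, plus strand: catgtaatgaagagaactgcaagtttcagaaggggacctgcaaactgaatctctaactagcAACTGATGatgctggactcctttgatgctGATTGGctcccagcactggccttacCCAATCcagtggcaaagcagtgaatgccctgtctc
H2-DMb1, chr17:34153041-34153190, plus strand: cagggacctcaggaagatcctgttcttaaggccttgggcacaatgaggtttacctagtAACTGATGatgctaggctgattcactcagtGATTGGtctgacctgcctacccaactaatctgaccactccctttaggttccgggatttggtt

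All 3 windows shown held the Y box letters within the last 62 bases before the start. GATTGG was present in 16.1% of the 32851 promoters of the same length. The X box letters began 89 bases before the start of H2-Eb1 and 92 bases before that of H2-DMb1, and 2.32% of all promoters held them. In H2-Aa the letters TGACGTCA began 74 bases before the start, and 1.79% of all promoters held them. The H2-DMa promoters held GATTGG only, 199 bases before 1 of its 2 annotated starts. These matches describe letters and not bound proteins. Since the letters were settled after the windows had been seen, the shares of all promoters are no test of the matches.

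**Figure D1:**
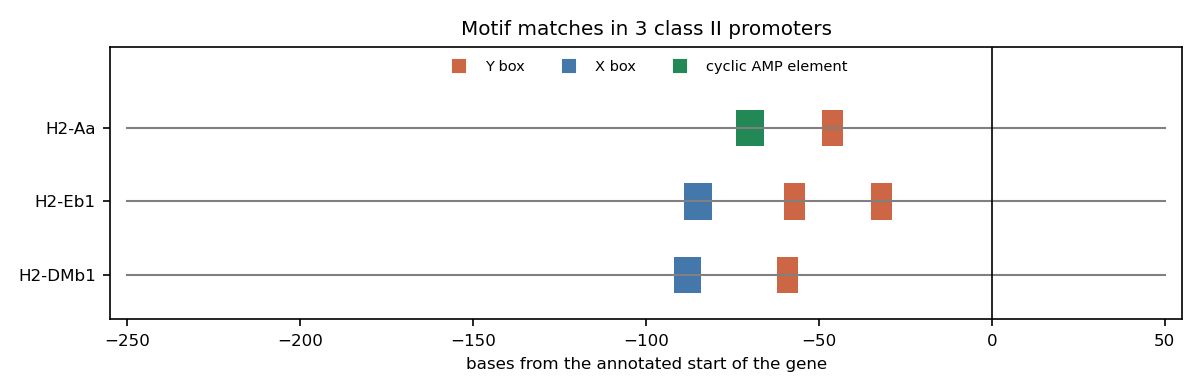
Motif matches in the promoter windows of H2-Aa, H2-Eb1 and H2-DMb1; the horizontal axis is the distance in bases from the annotated start (vertical line), and each coloured block is 1 match. The Y box letters lie within 62 bases of the start in all 3 genes, and the X box letters of H2-Eb1 and H2-DMb1 begin 89 and 92 bases before it.

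All 10 kept probes were well above background on all 24 arrays. Levels below are log2 processed signals relative to the 75th percentile of the same array, and group differences are read between arrays of 1 probe. Only the summed marker signals and the choice of the brightest probe set probes side by side. Those describe signal and not amounts of RNA. No member passed the threshold in any comparison. With a Benjamini-Hochberg adjusted p of 0.05 in limma as the threshold, 0 of 7 genes passed in HFD_Cont against STD_Cont, where 2.91% of the 19938 gene names tested passed. The count was also 0 of 7 in HFD_O3 against HFD_Cont, where 0% of names passed and the smallest adjusted p of any name was 0.188. It was 0 of 7 in HFD_O3 against STD_Cont, where 0.597% of names passed. At an unadjusted limma p under 0.05 the members' count stayed at 0 in each comparison, against 16.6%, 7.08% and 11.2% of all names. The 3 groups overlapped for every member in each comparison. The share of all names with overlapping groups was not counted, so this overlap is not read as particular to the members.

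H2-Aa, the I-A alpha chain, ran from −1.67 through a median of −1.21 to −0.46 in STD_Cont. In HFD_Cont its lowest, median and highest levels were −1.57, −1.06 and −0.51, and in HFD_O3 −1.65, −1.30 and 0.30. Its HFD_O3 median was thus the lowest of the 3, while 1 HFD_O3 array, replicate 4, stood above every other array. The difference was 0.10 ± 0.23 (SE, n = 8 per group; limma adjusted p = 0.894) for HFD_Cont minus STD_Cont. It was −0.020 for HFD_O3 minus HFD_Cont (limma adjusted p = 0.990).

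H2-Ab1, the I-A beta chain, was represented by probe 3, the brightest of its 4, which ran from 2.04 through 2.45 to 2.89 in STD_Cont. In HFD_Cont the lowest, median and highest levels were 2.13, 2.54 and 3.31, and in HFD_O3 2.05, 2.48 and 3.73. The 3 medians lay well inside the range of each group, and again HFD_O3 replicate 4 was the highest of all arrays. HFD_Cont minus STD_Cont was 0.11 ± 0.19 (SE, n = 8 per group; limma adjusted p = 0.856) and HFD_O3 minus HFD_Cont 0.024 (limma adjusted p = 0.988). The other 3 probes of the gene gave 0.048, 0.11 and 0.18 for the diet difference and −0.037, −0.0083 and 0.0098 for the lineage difference. None of the 4 passed the threshold when every probe was tested on its own, so they gave the same call.

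H2-Eb1, the I-E beta chain, had lowest, median and highest levels of 1.83, 2.30 and 2.94 in STD_Cont. The same values were 1.96, 2.43 and 3.08 in HFD_Cont and 1.91, 2.46 and 3.68 in HFD_O3. The 3 classical chains thus shared the pattern of overlapping groups with 1 high HFD_O3 array. Its diet difference was 0.10 ± 0.20 (SE, n = 8 per group; limma adjusted p = 0.876), and 6 of 8 HFD_Cont arrays lay above the STD_Cont median. The lineage difference was 0.045 (limma adjusted p = 0.974).

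Cd74, the invariant chain, was read by a probe at chr18:60972075-60972132 (mm9). It had lowest, median and highest levels of 1.52, 1.90 and 2.39 in STD_Cont. They were 1.37, 2.01 and 2.54 in HFD_Cont and 1.53, 1.88 and 2.90 in HFD_O3. The lowest array was in HFD_Cont and the highest in HFD_O3, and the groups overlapped over most of their range. Cd74 had the smallest diet difference of the 7 genes, 0.030 ± 0.17 (SE, n = 8 per group; limma adjusted p = 0.965). It had the largest lineage difference in absolute size, 0.061 (limma adjusted p = 0.959).

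Of the H2-DM chains, which catalyse peptide exchange, H2-DMb1 ran from −1.18 through −0.72 to −0.0088 in STD_Cont. It ran from −0.79 through −0.47 to −0.000097 in HFD_Cont and from −1.06 through −0.64 to 1.11 in HFD_O3. In the omega-3 lineage 7 of 8 arrays lay below the HFD_Cont median and replicate 4 lay far above it. The means of HFD_Cont and HFD_O3 were both −0.46, and without replicate 4 that of HFD_O3 was −0.69. The diet difference of H2-DMb1 was 0.19 ± 0.22 (SE, n = 8 per group; limma adjusted p = 0.731). Without HFD_O3 replicate 4 its lineage difference went from −0.0044 to −0.23, at a limma adjusted p of 0.651.

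H2-DMa had lowest, median and highest levels of −2.99, −2.57 and −1.79 in STD_Cont. They were −2.58, −2.44 and −2.19 in HFD_Cont and −3.01, −2.55 and −1.68 in HFD_O3. HFD_Cont was the narrowest group for this gene, with an SD of 0.12 against 0.38 in STD_Cont and 0.40 in HFD_O3. The diet difference was 0.094 ± 0.16 (SE, n = 8 per group; limma adjusted p = 0.839) and the lineage difference −0.055 (limma adjusted p = 0.959).

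Ciita, the transactivator, had lowest, median and highest levels of −2.88, −2.52 and −1.63 in STD_Cont. They were −2.74, −2.33 and −1.43 in HFD_Cont and −2.71, −2.34 and −1.21 in HFD_O3. It had the largest diet difference of the 7, 0.24 ± 0.21 (SE, n = 8 per group; limma adjusted p = 0.625), with 6 of 8 arrays above the STD_Cont median, and its lineage difference was 0.00099. Of its other 3 probes, 1 was well above background on 7 arrays and the other 2 on none. The second H2-DMb1 probe was well above background on none of the 24 arrays.

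**Figure D2:**
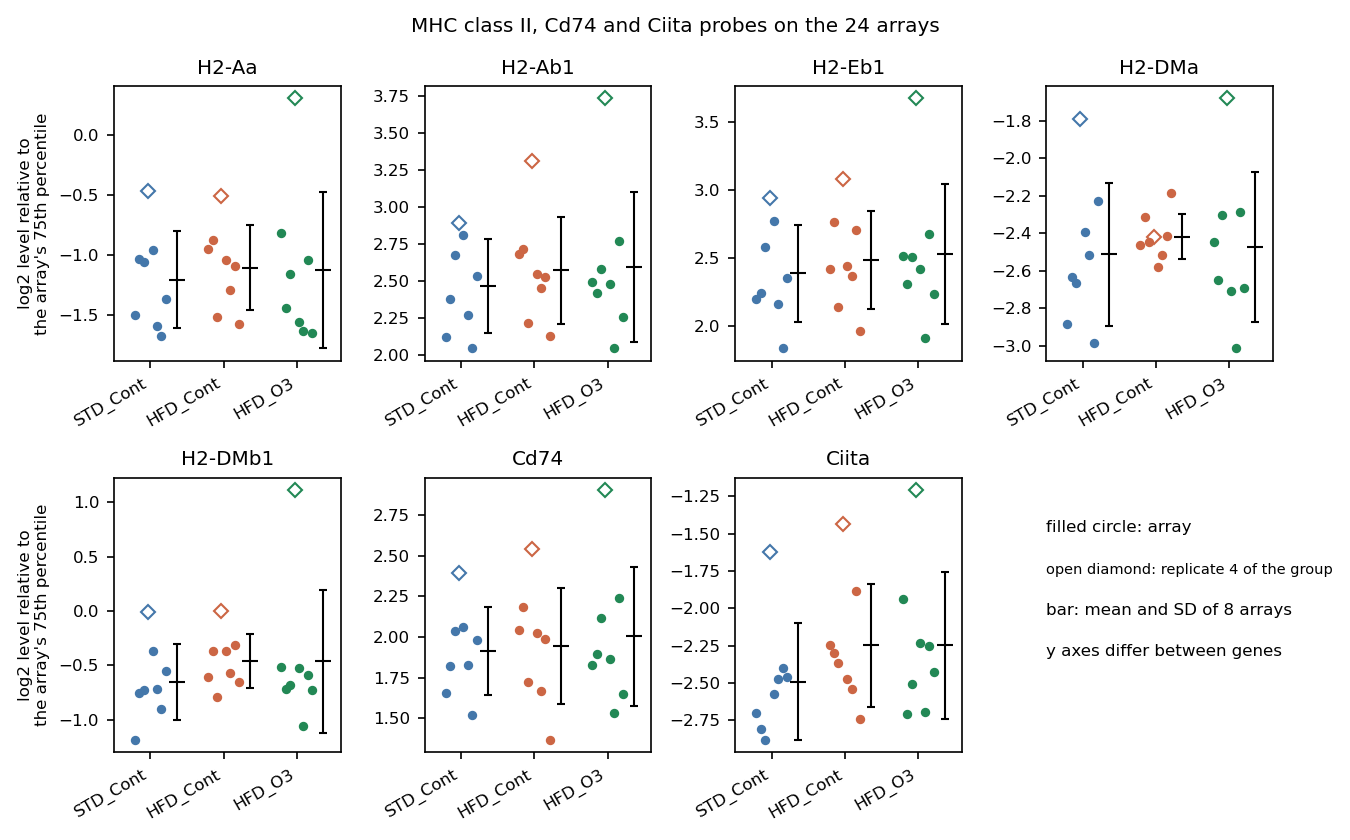
Level of each of the 7 genes on each array; the vertical axis is the log2 signal relative to the array's 75th percentile, points are arrays (replicate 4 of each group as an open diamond), and bars give the mean and SD of 8 arrays. The groups overlap in every panel, and HFD_O3 replicate 4 is the highest array of all for every gene.

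In HFD_Cont against STD_Cont 7 of 7 members had a difference above 0, from 0.030 to 0.24 with a median of 0.10, where 50.8% of all names lay above 0 and the median over all names was 0.0023. The members vary together, as described below, so the 7 signs are not 7 separate observations. As linear ratios the 7 differences were 1.02 to 1.18. Their 95% intervals together ran from −0.38 to 0.67 on the log2 scale, or from 0.77-fold to 1.59-fold, and every one of them included 0. The narrowest was that of H2-DMa, from −0.23 to 0.42.

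In HFD_O3 against HFD_Cont 4 of 7 members were above 0, against 44.2% of all names, and the differences ran from −0.055 to 0.061. Their 95% intervals together ran from −0.50 to 0.46. In HFD_O3 against STD_Cont 7 of 7 members were above 0, from 0.039 to 0.24 with a median of 0.13, against 44.4% of all names. This comparison shares its groups with the other 2, and its smallest limma adjusted p was 0.734, for Ciita. The order of the 3 group means was STD_Cont, HFD_Cont, HFD_O3 for H2-Ab1, H2-Eb1, Cd74 and Ciita (the last 2 groups 0.00099 apart for Ciita), and STD_Cont, HFD_O3, HFD_Cont for H2-Aa, H2-DMa and H2-DMb1. No neighbours in these orders differed beyond the spread between arrays.

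**Figure D3:**
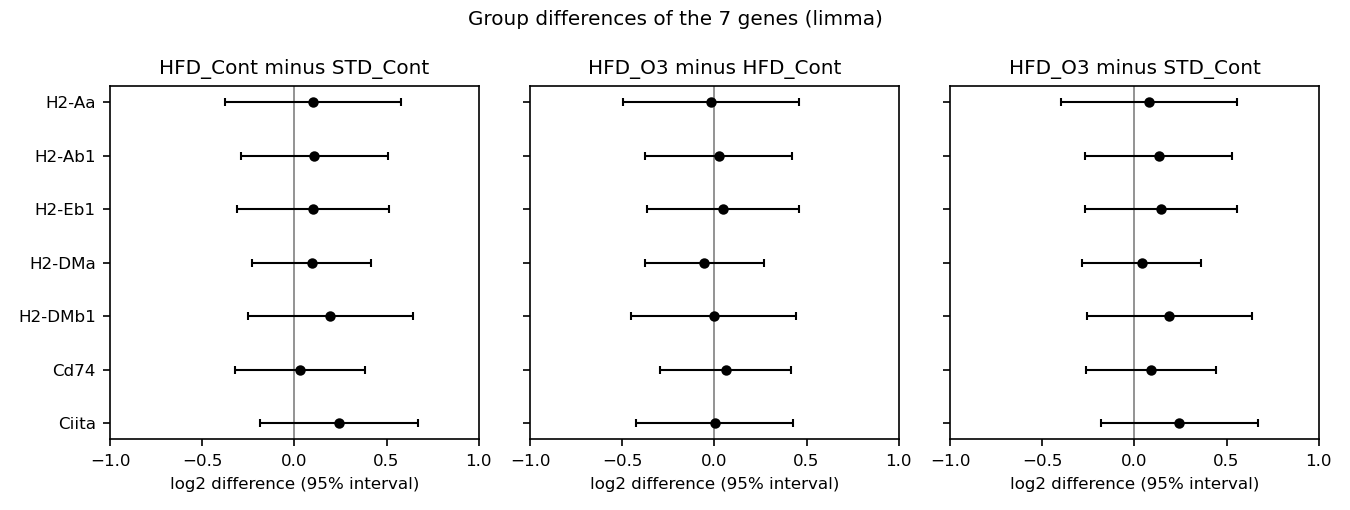
Differences between groups for the 7 genes; the horizontal axis is the log2 difference with its 95% interval from limma, and each panel is 1 comparison of 8 against 8 arrays. Every interval includes 0, and the differences run from −0.055 to 0.24.

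Leaving out any 1 array turned the sign of the diet difference for Cd74 alone of the 7 genes, in 4 of 24 fits. Removing more arrays turned others. Without the 9 arrays whose white adipocyte score exceeded 0.5 (the mean log2 deviation of 8 adipocyte genes from their means over all arrays), 2 of 7 members lay above 0 in HFD_Cont against STD_Cont, with differences from −0.18 for Cd74 to 0.15 for H2-DMa. Those arrays were 3 STD_Cont, 4 HFD_Cont and 2 HFD_O3 samples, and this removal was chosen after seeing the data. They included replicate 4 of all 3 groups, the arrays described below as high in class II. What part of the change came from those arrays was not tested. Within slides, 7, 5 and 6 of 7 members were above 0 for the diet and 1, 2 and 4 for the lineage. With slide as a fixed block the counts were 7 and 1. No member passed the threshold in any of these fits.

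The members varied more between arrays of 1 group than between groups. The within-group SD of the 7 genes ran from 0.33 for H2-DMa to 0.49 for H2-Aa, where the median over all names was 0.18. In percentiles of all names by this SD, the members lay from 80.2 to 92.4. Replicate 4 was the highest array for 7 of 7 genes in STD_Cont, 6 of 7 in HFD_Cont and 7 of 7 in HFD_O3, H2-DMa in HFD_Cont being the exception. Averaged over the 7 genes it stood above its group mean by 0.63, 0.54 and 1.14. At the other end, HFD_O3 replicate 6 lay 0.53 below its group mean on average and was the lowest array for 5 genes, as were STD_Cont replicate 7 and HFD_Cont replicate 8.

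The 3 arrays numbered 4 lay on the same slide, slide 2, in rows 2, 1 and 1. The labels do not say that a number marks a shared animal, litter or day. Their adipocyte scores were 0.95, 2.31 and 1.85. Their 75th percentile signals, before scaling, ranked 3, 5 and 2 among the 8 arrays of their groups. The part of slide, position and tissue makeup in their high class II levels was not tested. By slide, Cd74 averaged 1.91 ± 0.19, 2.17 ± 0.43 and 1.78 ± 0.28 (SD, n = 8 each) on slides 1, 2 and 3, and H2-Ab1 2.45 ± 0.21, 2.81 ± 0.52 and 2.37 ± 0.24 (SD, n = 8 each). Slide 2 was the highest of the 3 for all 7 genes, but its means include the 3 arrays numbered 4. The other slide 2 arrays ran from 1.53 to 2.06 for Cd74, and those of slide 1 from 1.66 to 2.19. These ranges pool the groups. In STD_Cont the slide 2 replicates 3 and 5 (2.04 and 2.06) lay above every array of that group on the other slides (highest 1.98). In the other groups HFD_Cont replicate 5 (2.03) and HFD_O3 replicates 5 and 6 (1.87 and 1.53) did not. The highest arrays on the other slides there were 2.19 and 2.24.

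**Figure D4:**
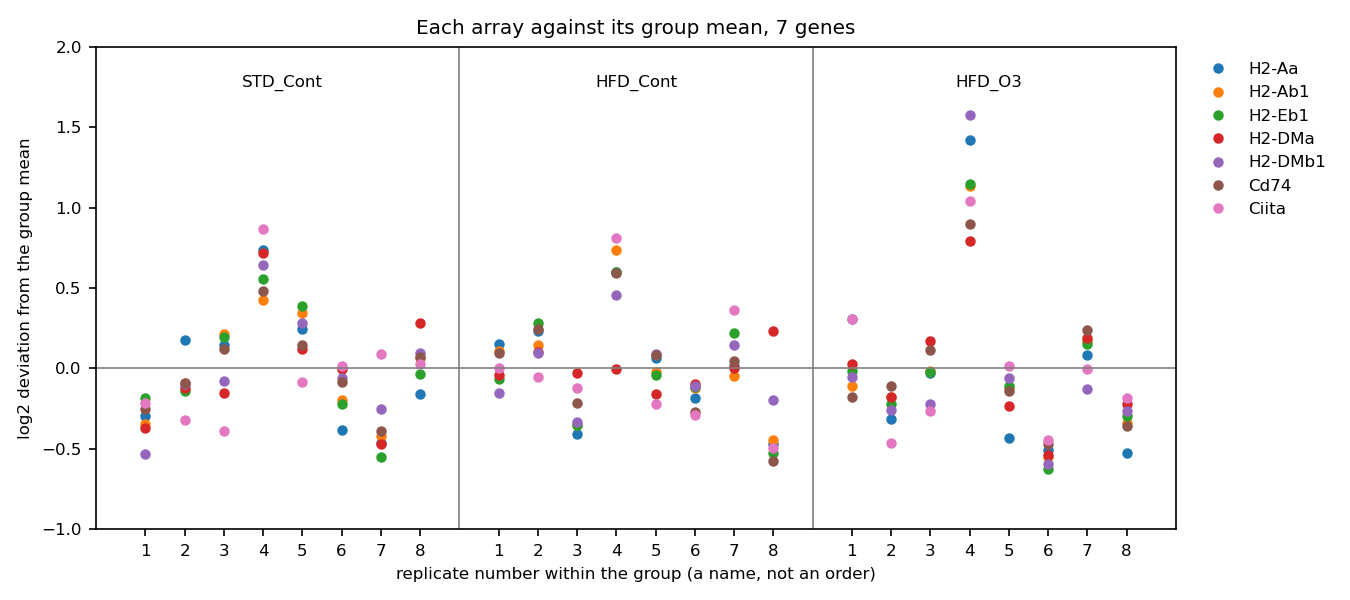
Deviation of each array from its group mean, in log2 units, for the 7 genes (colours); the horizontal axis gives the replicate number, which is a name and not an order. Replicate 4 of STD_Cont, HFD_Cont and HFD_O3 has means of 0.63, 0.54 and 1.14 over the 7 genes. Its single genes run from 0.43 to 0.86, from −0.0039 to 0.81 and from 0.79 to 1.57.

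The class II chains and the invariant chain rose and fell together from array to array. Over the 24 arrays, Pearson's r between pairs of H2-Aa, H2-Ab1, H2-Eb1 and Cd74 ran from 0.898 to 0.967 and Spearman's rho from 0.822 to 0.965. Cd74 followed H2-Ab1 most closely (r = 0.960), then H2-Eb1 (0.947) and H2-Aa (0.898). Over all 21 pairs of the 7 genes r ran from 0.622 to 0.967 with a median of 0.822, and rho from 0.408 to 0.965. With group means removed the range was 0.623 to 0.967. These are descriptions over arrays that share slides and a scaling, and the genes were chosen as 1 system.

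Part of that likeness rested on the 3 high arrays. Without replicate 4 of each group (21 arrays, a choice made after seeing the data) the pairs of the 4 genes kept r from 0.742 to 0.929. The 15 pairs with H2-DMa, H2-DMb1 or Ciita then ran from 0.272 to 0.733. Cd74 with Ciita went from 0.740 to 0.299. Within slides 1, 2 and 3 the 4 genes gave 0.591 to 0.937, 0.947 to 0.988 and 0.787 to 0.930. The same ranges over all 7 genes were 0.256 to 0.937, 0.787 to 0.988 and −0.089 to 0.930. The 4 probes of H2-Ab1, which read 1 gene, gave r from 0.854 to 0.976 with one another over the 24 arrays. Within slides 1, 2 and 3 the probes gave 0.854 to 0.968, 0.940 to 0.993 and 0.682 to 0.954, so on slide 1 the lowest correlation among the 4 genes lay below that among the probes.

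The genes most like the 4 were sought among 13645 names with a plain symbol, by Pearson's r over the 24 arrays with the mean z score of H2-Aa, H2-Ab1, H2-Eb1 and Cd74. Mpeg1, a macrophage pore protein, came first (r = 0.902). Selplg, the ligand of P-selectin on leukocytes, followed (0.879), then Tyrobp, a signalling adaptor of myeloid cells (0.871), and Cd52, a leukocyte surface protein (0.860). Adgre1, which encodes the macrophage marker F4/80, had r = 0.850. Myo1g, Ly86, Fcer1g, C1qb and Dok2 filled the list, from 0.846 to 0.828. The median over all names was −0.026, and 19 names exceeded 0.8. With group means removed, and without HFD_O3 replicate 4, 7 of these 10 stayed among the first 10 each time.

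Cd74 was then set against the mean deviation of marker lists, with group means removed, as 11 relations whose permutation p-values were adjusted together. The arrays share slides and a scaling, so they are not freely exchangeable and these p-values can be too small. The lists were also chosen with earlier results of these data known. Adgre1 and C1qb of the macrophage list were already among the closest genes in the search above, over the same arrays. The p-values for all lists are therefore given as descriptions and not as tests. The closest relation was that of the macrophage list of 13 measured genes, with r = 0.882 and rho = 0.815. The two-sided permutation p was 1e-05 for both, the smallest that 100000 permutations can give, and the adjusted values were 5.5e-05 and 0.00011. Within slides r was 0.900, 0.929 and 0.711. Without the 2 arrays farthest out on the macrophage axis, HFD_O3 replicate 4 and HFD_Cont replicate 2, it was 0.834, and without the 3 arrays numbered 4 it was 0.758.

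The dendritic cell list followed, with r = 0.815, rho = 0.754 and adjusted permutation p-values of 5.5e-05 and 0.000385. It rested on 5 of 10 genes, since Itgax, Flt3, Xcr1, Clec9a and Ccr7 did not pass the filter. Of the 5, Siglech had mean log2 levels of 8.71, 8.67 and 8.72 in STD_Cont, HFD_Cont and HFD_O3. Batf3 was well above background on 12 arrays. How much of the signal of these probes came from dendritic cells was not tested. Within slides r was 0.706, 0.787 and 0.901. Without STD_Cont replicate 4 and HFD_Cont replicate 4, the farthest arrays, it was 0.775, and without all 3 arrays numbered 4 it was 0.704. No relation to Cd74 was detected for the B cell list (r = 0.165, rho = −0.064, adjusted permutation p = 0.466 and 0.766), with Cd79a never above background. Within slides its r was 0.578, 0.097 and −0.076, and it was −0.275 without the 2 farthest arrays, STD_Cont replicate 4 and HFD_Cont replicate 2. On this list STD_Cont replicate 4 lay 0.85 above its group mean. The deviations of replicate 4 in HFD_Cont and HFD_O3 were −0.0094 and −0.094.

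**Figure D5:**
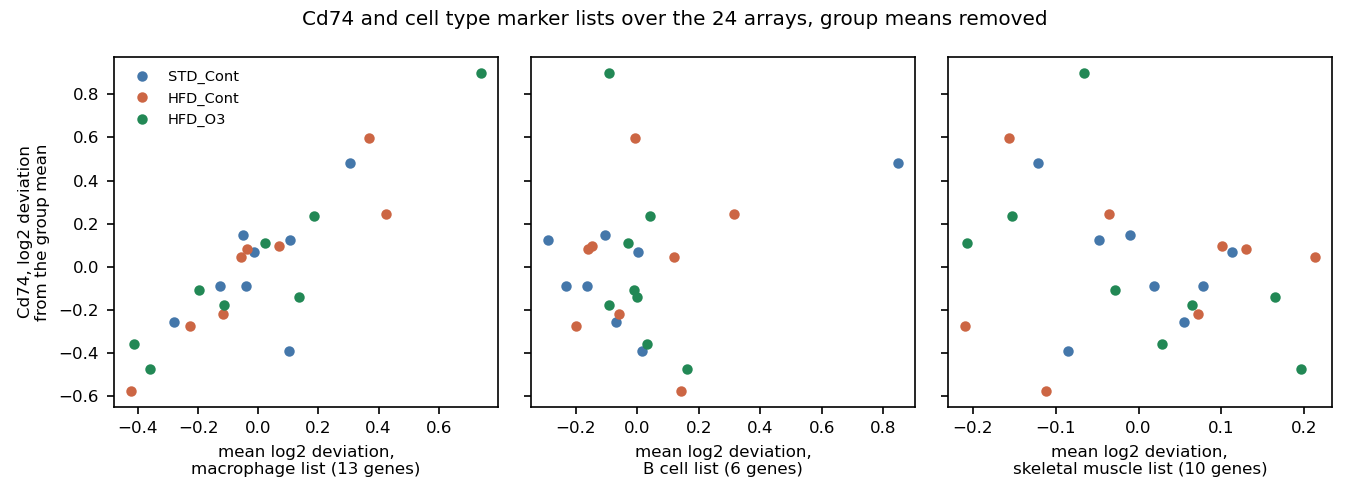
Cd74 against the mean of the macrophage, B cell and skeletal muscle marker lists on each of the 24 arrays, both axes as log2 deviations from the group mean; points are arrays, coloured by group. The correlation with Cd74 is 0.882 for the macrophage list, 0.165 for the B cell list and −0.275 for the skeletal muscle list.

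The fibroblast list had r = 0.729 and rho = 0.655 with Cd74 (adjusted permutation p = 0.00011 and 0.00249), r = 0.898, 0.742 and 0.50 within slides, 0.649 without the 2 farthest arrays and 0.603 without the 3 numbered 4. Genes of class II peptide loading and turnover had r = 0.741 and rho = 0.611 (adjusted permutation p = 0.00022 and 0.00454), 0.530, 0.942 and 0.447 within slides and 0.562 without the 2 farthest. Without the 3 arrays numbered 4 their r was 0.442. MHC class I genes had r = 0.607 and rho = 0.482 (adjusted permutation p = 0.00409 and 0.0397), but within slides r was −0.273, 0.623 and 0.797, so the relation did not hold on slide 1. It was 0.464 without the 2 farthest arrays and 0.459 without the 3 numbered 4. The white adipocyte list had r = 0.422 and rho = 0.155 (adjusted permutation p = 0.0735 and 0.513). Its r fell to 0.061 without HFD_O3 replicate 4 and HFD_Cont replicate 4, and it was −0.015, 0.576 and −0.171 within slides.

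The T cell list had r = 0.406 and rho = 0.340 (adjusted permutation p = 0.0776 and 0.190), −0.309, 0.476 and 0.204 within slides and 0.372 without the 2 farthest arrays. The class II regulators had r = 0.206 and rho = 0.187 (adjusted permutation p = 0.401 and 0.466), 0.169, −0.240 and 0.418 within slides and 0.228 without the 2 farthest. Endothelial genes had r = 0.092 and rho = 0.188 (adjusted permutation p = 0.663 and 0.466), −0.394, −0.051 and 0.626 within slides and 0.165 without the 2 farthest. Skeletal muscle genes had r = −0.275 and rho = −0.275 (adjusted permutation p = 0.269 and 0.305), −0.485, −0.837 and 0.346 within slides and −0.374 without the 2 farthest. None of these 4 relations passed an adjusted p of 0.05 by either measure.

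The tissue label was checked on 10 skeletal muscle genes, all measured, whose summed signal was 11665 to 17349 times the array's 75th percentile. Summed macrophage signal, in the same units, ran from 71.4 to 135.0 in STD_Cont, 64.6 to 97.6 in HFD_Cont and 68.3 to 107 in HFD_O3. Replicate 4 held the highest sum in each group, and Fcgr1 was never above background. The sum is carried mostly by its brightest probe, Itgam, whose mean log2 level was 5.77, 5.73 and 5.83 in the 3 groups. By the mean deviation over the 13 genes, which weights them equally, replicate 4 was the highest array in STD_Cont (0.30) and HFD_O3 (0.74), but HFD_Cont replicate 2 (0.42) lay above HFD_Cont replicate 4 (0.37). For the dendritic list, the 4 genes with a value on all arrays, without Siglech, summed to 1.62 to 3.26, 1.46 to 3.29 and 1.30 to 2.61. Replicate 4 was again highest in each group. The adipocyte sums were 148 to 370, 169 to 553 and 149 to 380, with replicate 4 highest in the HFD groups and second in STD_Cont. Of the class II genes outside the 7, H2-Eb2 alone passed the filter, well above background on 14 arrays, while H2-Ea-ps and H2-DMb2 were never above it. For H2-Eb2 replicate 4 ranked 1 of 8 in STD_Cont and 2 of 8 in HFD_Cont. H2-Eb2 did not share the high HFD_O3 array, where replicate 4 ranked 6 of 8.

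None of the regulators of class II passed the threshold. Of 14 measured, which include the X and Y box proteins and the interferon-gamma pathway, 0 passed in each comparison, with median differences of 0.00022, 0.016 and 0.017 against 0.0023, −0.014 and −0.015 over all names. The 2 with the smallest p in HFD_Cont minus STD_Cont were Ifngr1, a chain of the interferon-gamma receptor (−0.21 ± 0.07 SE, limma adjusted p = 0.132), and Irf1, an interferon-induced factor (0.19 ± 0.07, limma adjusted p = 0.144). In HFD_O3 minus HFD_Cont they were Rfx5, an X box protein (0.33, limma adjusted p = 0.638), and Irf1 (−0.17, limma adjusted p = 0.651). In HFD_O3 minus STD_Cont they were Jak2, a kinase of the receptor (−0.25, limma adjusted p = 0.168), and Ifngr1 (−0.15, limma adjusted p = 0.456). Ifng, the cytokine itself, and Spi1 were never above background.

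Of 10 measured genes of peptide loading and turnover, 0 passed in each comparison, with medians of −0.044, 0.023 and −0.043. The smallest p for the diet belonged to the protease Ctsl (−0.20, limma adjusted p = 0.424) and to the thiol reductase Ifi30 (−0.14, limma adjusted p = 0.626). For the lineage they belonged to Marchf8 (−0.095, limma adjusted p = 0.732) and Ctsh (−0.13, limma adjusted p = 0.824). Of 17 MHC class I genes, 0 passed, with medians of 0.045, −0.0091 and 0.060. Psmb10, an immunoproteasome subunit, had the smallest p for the diet (0.18 ± 0.06 SE, limma adjusted p = 0.109), then Nlrc5, the class I transactivator (0.35, limma adjusted p = 0.330). Psmb10 was also first for the lineage (−0.17, limma adjusted p = 0.638).

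Among cell type markers, 0 of 13 macrophage genes passed in each comparison, with medians of −0.015, −0.038 and −0.16. Cd163, a scavenger receptor of resident macrophages, had the smallest p for the diet (−0.57 ± 0.16 SE, limma adjusted p = 0.0506), then Cd14 (−0.47, limma adjusted p = 0.185). No member of the class II system had a difference of that size. No gene of the dendritic (5 measured), B cell (6), T cell (4), white adipocyte (8), fibroblast (6) or skeletal muscle (10) lists passed in any comparison, and their diet medians were 0.017, −0.032, 0.073, 0.51, 0.23 and 0.018. The fibroblast genes with the smallest p for the diet were the collagens Col3a1 (0.53, limma adjusted p = 0.0645) and Col1a1 (0.53, limma adjusted p = 0.0997). The list was not uniform, as 4 of its 6 genes lay above 0 for the diet and the others below it. Those of the adipocyte list were Adipoq (1.47, limma adjusted p = 0.375) and Plin1 (0.99, limma adjusted p = 0.537). Those of the dendritic list were Zbtb46 (0.22, limma adjusted p = 0.340) and Siglech (−0.042, limma adjusted p = 0.830). Cd3d (−0.59, limma adjusted p = 0.504) and Cd3e (0.12, limma adjusted p = 0.718) led the T cell list. Tnnt3 (0.062, limma adjusted p = 0.836) and Actn3 (0.044, limma adjusted p = 0.863) led the skeletal muscle list. Of 8 endothelial genes 1 passed, Kdr, a receptor of vascular growth factor, which rose in HFD_Cont against STD_Cont (0.45, limma adjusted p = 0.021). The endothelial list as a whole did not rise with it: its diet median was −0.013, and 3 of the 8 genes lay above 0.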

How the data were processed

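RNA of 24 mouse muscle samples was labelled with Cy3 and hybridised to 1 array each, per the labels' protocols. The deposited scanner files hold intensity values from Agilent Feature Extraction 10.10.1.1, per the file headers. The authors' deposited log2 table, whose columns have medians of 7.69 to 7.70, was used as an alternative; each column followed its own array's log2 median signal (r of at least 0.9996), no label or header states its background treatment or scaling, and the submitters' processing notes name limma. Here each array's log2 processed signal was set relative to its 75th percentile. Flagged spots were left out, and probes well above background on at least 6 of 8 arrays of a group were kept (29246 of 56605 probes). Between 52.0% and 60.7% of probes were well above background on an array, and the number of arrays limits the precision. The brightest kept probe stood for each of 19938 names; 32994 probes were named through RefSeq and the others by the array design. Groups were compared with limma 3.58.1 in R 4.3.3 over all 24 arrays, with a two-sided test. On simulated data 200 of 19938 genes were changed by 0.5 or 1 (log2). For HFD_Cont against STD_Cont 63% and 88% of these were recovered, and 6 unchanged genes were called. The values were 73%, 93% and 15 for HFD_O3 against HFD_Cont, and 70%, 93% and 8 for HFD_O3 against STD_Cont. The simulated noise was normal and independent between genes, without slides or outlying arrays. The changed genes were drawn from all names, and the members vary more than most names, so these are not recovery rates for the members. Correlations used Python 3.11.15 and scipy 1.17.1. From each gene list, genes past the threshold (at most 4) or otherwise at most the 2 with the smallest p are named, for the cell type lists in HFD_Cont against STD_Cont alone. Single genes of the B cell list's comparison are not reported here. The members, lists and tests were chosen with earlier results of these data known.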

Additional observations from a re-analysis of the deposited data

Results flagged for a closer look

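Each kept probe was checked in each group of 8 for a highest or lowest array standing apart from the others. The measure is the gap to the nearest array divided by the group's range, against Dixon's critical value of 0.526. Of 30 groups checked, 8 exceeded it, where chance flags about 1 in 20 separate checks. The members vary together from array to array, so the 30 checks are not separate and the count is not read against that rate. In 7 of the 8 groups the array was HFD_O3 replicate 4. For H2-Aa, the I-A alpha chain, it stood at 0.30 with the next array at −0.82, a ratio of 0.574. For the 4 probes of H2-Ab1, the I-A beta chain, in genome order, the ratios were 0.680, 0.595, 0.572 and 0.580. These 4 probes read 1 transcript and are not separate observations. H2-Eb1, the I-E beta chain, gave 0.563, with levels of 3.68 and 2.68. The largest ratio was that of H2-DMb1, a chain of the peptide exchange molecule, at 0.75, where the array stood at 1.11 and the next at −0.52. For Ciita, the transactivator, the array was STD_Cont replicate 4, at −1.63 with the next at −2.40, a ratio of 0.616. No kept probe of Cd74 or H2-DMa exceeded the critical value in any group. No cause was tested.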

How the results depend on the processing

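The count of members past the threshold was 0 in each comparison under all 19 alternatives and the 24 fits that left out 1 array, and the smallest adjusted p of a member was 0.236. Directions were less stable. Of 133 member differences per comparison, 123 kept their sign for HFD_Cont minus STD_Cont, 105 for HFD_O3 minus HFD_Cont and 120 for HFD_O3 minus STD_Cont; the cause was not tested.

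For HFD_Cont minus STD_Cont the turned values were, with normexp, −0.0014 (H2-DMa). On slide 2 alone they were −0.22 (H2-DMa) and −0.0024 (H2-Eb1), and on slide 3 alone −0.10 (Cd74). With slide plus array row blocked, Cd74 stood at −0.086. Without the 9 arrays with a white adipocyte score over 0.5 the values were −0.18 (Cd74), −0.0039 (H2-Aa), −0.098 (H2-Ab1), −0.00050 (H2-DMb1) and −0.12 (H2-Eb1).

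For HFD_O3 minus HFD_Cont, array weights gave −0.049 (Ciita), −0.016 (H2-Ab1) and −0.012 (H2-Eb1). The authors' deposited table gave −0.0062 (Ciita) and 0.018 (H2-Aa). H2-Ab1 stood at −0.037 for the probe with the smallest p and at −0.0030 for the mean of its probes. Median scaling gave 0.0053 (H2-Aa) and 0.020 (H2-DMb1), and normexp 0.029 (H2-Aa), 0.030 (H2-DMa) and 0.041 (H2-DMb1). Slide as a fixed block gave −0.032 (Ciita), −0.032 (H2-Ab1) and −0.010 (H2-Eb1), as a random block 0.0072 (H2-DMb1), and with row −0.00080 (Ciita) and −0.0086 (H2-Ab1). Slide 1 alone gave −0.037 (Cd74), −0.083 (Ciita) and −0.042 (H2-Ab1). Slide 2 alone gave −0.18 (Cd74), −0.092 (Ciita), −0.18 (H2-Ab1), 0.032 (H2-DMa), 0.029 (H2-DMb1) and −0.095 (H2-Eb1). Without the 9 arrays H2-Aa stood at 0.043.

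For HFD_O3 minus STD_Cont, array weights gave −0.045 (H2-Aa) and −0.032 (H2-DMa), and slide with row −0.052 (Cd74) and −0.032 (H2-DMa). Slide 2 alone gave −0.063 (Cd74), −0.13 (H2-Aa), −0.041 (H2-Ab1), −0.18 (H2-DMa) and −0.098 (H2-Eb1). Without the 9 arrays the values were −0.0086 (Cd74), −0.041 (H2-Ab1), −0.0075 (H2-DMa) and −0.061 (H2-DMb1).

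Leaving out 1 array at a time turned Cd74 for HFD_Cont minus STD_Cont (−0.055 to 0.11, lowest without HFD_Cont replicate 4). For HFD_O3 minus HFD_Cont all 7 members turned in at least 1 fit: Cd74 (−0.068 to 0.15), Ciita (−0.15 to 0.12), H2-Aa (−0.22 to 0.066), H2-Ab1 (−0.14 to 0.13), H2-DMa (−0.17 to 0.022), H2-DMb1 (−0.23 to 0.081) and H2-Eb1 (−0.12 to 0.13). For HFD_O3 minus STD_Cont 6 turned: Cd74 (−0.037 to 0.16), H2-Aa (−0.12 to 0.19), H2-Ab1 (−0.032 to 0.21), H2-DMa (−0.074 to 0.14), H2-DMb1 (−0.036 to 0.28) and H2-Eb1 (−0.019 to 0.23). All 13 lowest values of the comparisons with HFD_O3 were those without HFD_O3 replicate 4.

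With the replicate number as a block, 0 members passed and the smallest adjusted p was 0.236 for HFD_Cont minus STD_Cont, 0.920 for HFD_O3 minus HFD_Cont and 0.354 for HFD_O3 minus STD_Cont. Correlations of same-numbered arrays ran from −0.13 to 0.36 in the first comparison, and 2 of 8 were over 0.1 in each comparison, so the number is not taken as a pairing. Number 4 is an exception: its correlations were 0.36, 0.31 and 0.16 in the 3 comparisons, and in each it was best with its own number. Over all names the counts moved by over 1.5 times with median scaling (177 and 62 of the 581 and 119 called in HFD_Cont and HFD_O3 against STD_Cont), with no filter (135 and 46), with slide and row (73 and 47), with only the 2 groups compared (1166 and 36), with array weights (1168 for the first) and to 0 within each slide and without the 9 arrays. Leaving out 1 array gave 182 to 977 and 68 to 343, and 0 to 1 for HFD_O3 minus HFD_Cont.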
